A study of Homo sapiens with 8 samples.

Results

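Tight clusters of p63-closed sites are places where several sites that the authors list as closed by p63 lie near each other. A site was counted as clustered when it lay on an autosome, had at least 2 other p63-closed sites with centres within 25 kb, and had no morphogen-opened site with its centre within 25 kb. This rule picked 309 of the 6005 autosomal p63-closed sites, out of 14191 sites in the 2 lists of the series. The members were chosen by position alone, so the closeness of their neighbours and the empty 25 kb towards opened sites follow from the rule and are described without a test.

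The sites come from ATAC-seq, which maps open chromatin by the cuts of a transposase, in the human embryonic stem cell line H9. There were 8 samples in 4 groups of 2: wild-type cells at day 0, wild-type cells at day 7, p63-/- cells at day 7, and cells of genotype TetO:Tp63+/- at day 0 after 2 days of doxycycline at 2 ug/ml. Both day 7 groups received retinoic acid at 1 uM and BMP4 at 5 ng/ml, the morphogens that turn these cells into surface ectoderm. All groups derive from 1 cell line, and the labels do not say whether the edited lines are single clones. The labels tie the list of p63-closed sites to both day 7 groups, and the list of opened sites to the wild-type groups. Neither list is tied to the induced line. The lists hold positions and no values per sample, so depth is unknown, no spread between cultures can be given, and the direction of each change is the authors' own. Markers of surface ectoderm could not be checked from positions alone.

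As background, p63 is a transcription factor of the p53 family that epidermis and other layered epithelia need in order to form. Retinoic acid acts through nuclear receptors that bind DNA, and BMP4 acts through SMAD proteins. Accessible sites away from gene starts are often enhancers, short elements that bind transcription factors, and several of them can lie close together around genes that control development. A p63-closed site is one that, by the name of the authors' list, the morphogens open and p63 closes.

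The 309 clustered sites fell into 129 chains. A chain is a run of p63-closed sites in which each centre lies at most 25 kb from the next, with at least 1 clustered site among them. The chains held 426 sites, so 117 sites belonged to a chain without meeting the rule themselves. Of these, 100 had fewer than 2 neighbours within 25 kb, and 22 had an opened site that close, with 5 counted under both. The typical chain was short: 99 chains had 3 sites, 21 had 4 and 9 had 5. Every site met the rule in 65 chains, which together held 205 clustered sites. At the other extreme, 41 chains rested on 1 clustered site. Their other sites had fewer than 2 neighbours within 25 kb, an opened site that close, or both. Most clustered sites (265) had exactly 2 other p63-closed sites within 25 kb, 39 had 3, 5 had 4 and 0 had more.

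Chains spanned a median of 26.7 kb from the start of the first site to the end of the last (quartiles 20.5 and 35.6 kb, range 4.90 to 68.9 kb). The sites themselves filled 19.3% of the summed span, 705 of 3652 kb, so a chain is mostly chromatin that the list does not include. Neighbouring centres in a chain lay a median of 10.9 kb apart (quartiles 4.88 and 17.9 kb). From edge to edge the median gap was 9097 bp. In 34 of the 297 neighbouring pairs the edges were within 1 kb of each other, and in the closest pair 5 bp separated them.

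Each site has a number in its name. The numbering jumps between some stretches of a chromosome, but within each chain it rose with position. The numbers appear to come from a larger catalogue, and what its unlisted entries are is not known here. The chains spanned 2279 numbers, of which 18.7% were in the p63-closed list. Neighbouring sites carried consecutive numbers in 48 of the 297 pairs, spread over 43 chains, and the median step was 6. In 3 chains every step was to the next number.

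The chains with the most clustered sites are given first, by a rule that ranks chains by members and breaks ties by the shorter distance between the first and the last centre. All positions are 1-based on hg19, the build named in the submitters' processing notes.

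In 2 chains there were 5 clustered sites each. The first lay on chromosome 12 from 76038371 to 76073357, a span of 35.0 kb. Its sites were 999, 1774, 1802, 1491 and 1974 bp wide in order of position. The third and the fourth were 77 bp apart, and the last stood 18.2 kb from the one before it. The nearest opened site was 66.8 kb away. The second lay on chromosome 2 from 151211029 to 151249673, with a pair at each end and a lone site of 1712 bp in the middle. Its widths were 1574, 1458, 1712, 603 and 1872 bp, and the nearest opened site was 78.6 kb away. These are the only chains in which more than 4 sites met the rule.

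A further 9 chains held 4 clustered sites. The one with the shortest whole span was on chromosome 13 from 93144702 to 93163419. There 4 narrow sites of 947, 1293, 1123 and 921 bp lay within 18.7 kb. The nearest p63-closed site outside that chain was 846 kb away, beside a median of 82.3 kb over all chains. On chromosome 7 from 42174820 to 42197063 the 4 sites were 983, 2504, 2110 and 3817 bp wide and filled 42.3% of a 22.2 kb span. This was the most filled of the chains with at least 4 clustered sites. On chromosome 4 from 79976636 to 80012239 there were 5 sites, of which the first, 23.1 kb from the next, did not meet the rule. The remaining 4 lay from 79999475 to 80012239, a shorter stretch than that of the chromosome 13 chain. Their gaps were 4.43, 5.86 and 1.29 kb, and the edges of the last 2 were 143 bp apart. By mean spacing these chains on chromosomes 13, 7 and 4 and the one on chromosome 12 at 76038371 were the 4 densest with at least 4 clustered sites. Their mean gaps were 5.93, 6.62, 8.66 and 8.38 kb, taken over all sites of a chain, also those outside the rule.

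The other chains of this size were looser. On chromosome 5 from 77903047 to 77934974 all 4 sites met the rule, were 1098 to 1644 bp wide and had a mean gap of 10.2 kb. On chromosome 14 from 82231517 to 82264313 3 wide sites of 2656, 2286 and 2502 bp were followed by one of 1008 bp, and the nearest opened site was 355 kb away. On chromosome 8 from 97042851 to 97078267 the spacing was nearly even, with gaps of 10.7, 13.5 and 9.66 kb. On chromosome 6 from 8157387 to 8196927 the gaps were 15.4, 7.17 and 15.2 kb, and the nearest opened site was 35.2 kb away, the closest for a chain with at least 4 clustered sites. These 4 chains each had every site within the rule.

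The 2 longest of the group each ended in a site that fell outside the rule. On chromosome 1 from 164229236 to 164281696 there were 5 sites over 52.5 kb, with gaps of 11.5, 9.09, 12.8 and 17.0 kb. On chromosome 12 from 90396534 to 90465465 there were 5 sites over 68.9 kb, the longest chain of all. There a wide site of 3181 bp stood 22.9 kb before a close pair of 582 and 1483 bp, and 2 more sites followed at gaps of 21.5 and 20.4 kb.

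**Figure D1:**
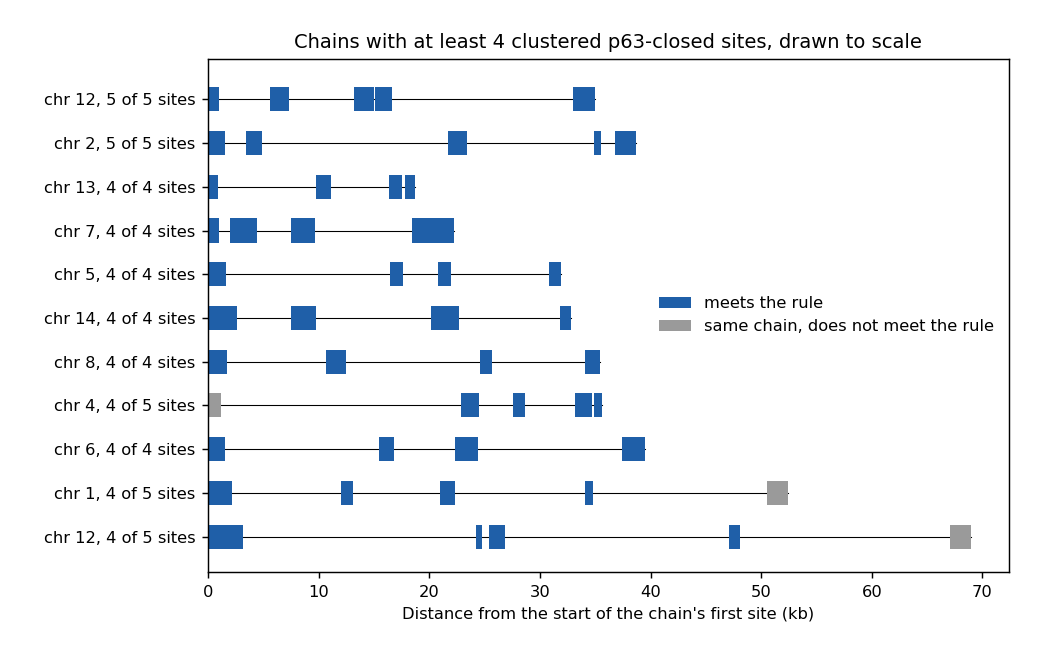
The 11 chains with at least 4 clustered sites, one per row, with each p63-closed site drawn as a bar at its true width and position; the horizontal axis is the distance in kb from the start of the first site. Blue bars meet the rule and grey bars belong to the chain without meeting it. Spans run from 18.7 kb (chromosome 13) to 68.9 kb (chromosome 12), and most of each span is not covered by a listed site.

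The last 4 of the 15 chains described one by one had 3 sites each and were the most compact. On chromosome 12 from 90219394 to 90224363 sites of 1477, 790 and 1446 bp followed each other at edge gaps of 291 and 966 bp and filled 74.7% of the 4.97 kb span. On chromosome 5 from 163777808 to 163782704 a site of 2783 bp was flanked by ones of 865 and 461 bp, and the sites filled 83.9% of the 4.90 kb span. On chromosome 4 from 111958480 to 111965424 the sites were 2273, 1295 and 2129 bp wide and filled 82.0%. In these 3 chains the sites carried consecutive numbers throughout. The chain on chromosome 2 from 237621067 to 237627831, with sites of 2203, 783 and 1547 bp, skipped 1 number.

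The 2 widest clustered sites lay elsewhere. One was 3924 bp wide, on chromosome 1 from 101436492 to 101440415. The other was 3913 bp wide, on chromosome 9 from 87876185 to 87880097, and came 300 bp after the site before it in its chain.

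Spacing varied among the chains of 3 sites. Over the 99 of them the longer gap was a median of 2.84 times the shorter (quartiles 1.56 and 4.97). The longer gap was at most 1.5 times the shorter in 23 chains and at least 3 times in 47. Some chains were thus a close pair with a lone site at a distance. The rule limits these gaps and no other spacing was set beside them, so they are described only. Where the gaps add up to over 25 kb only the middle site can meet the rule, and this was so in 36 of the 38 chains of 3 sites with 1 clustered site.

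**Figure D2:**
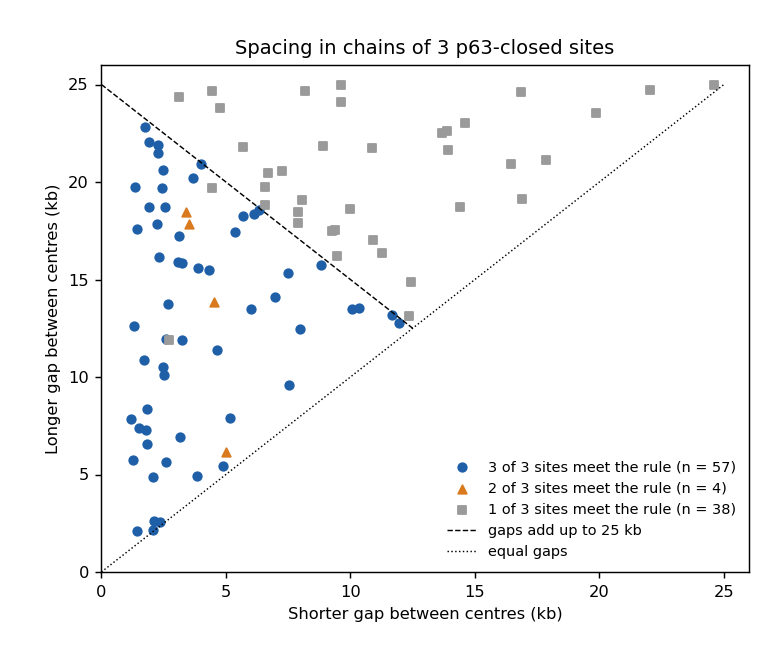
Spacing in the 99 chains of 3 p63-closed sites, with the shorter gap between centres (kb) on the horizontal axis and the longer gap (kb) on the vertical axis. Blue circles are the 57 chains in which all sites met the rule, orange triangles and grey squares those in which 2 or 1 did. Points gather at the left, where a short gap goes with a long one; the dashed line marks gaps that add up to 25 kb and the dotted line equal gaps.

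Clustered sites were of ordinary width. Their median was 1463 bp (quartiles 1130 and 1975 bp, range 411 to 3924 bp), beside 1535 bp for the 5696 other autosomal p63-closed sites (quartiles 1181 and 2007 bp). Sites under 1000 bp made up 16.2% of the clustered sites (exact 95% interval 12.3 to 20.8%) and 13.7% of the others (12.8 to 14.6%). Sites of at least 2500 bp made up 10.4% (7.19 to 14.3%) and 10.2% (9.39 to 11.0%). These intervals overlap. They cover counting error only and take sites as independent, which sites of 1 chain are not. Within a chain the widest site was a median of 2.07 times the narrowest (quartiles 1.57 and 2.58). No such ratio was taken over other p63-closed sites.

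The nearest opened site was a median of 148 kb from a clustered site (quartiles 70.0 and 349 kb, range 25.5 to 1624 kb). The comparison that shares the rule's empty 25 kb is with the 4665 other autosomal p63-closed sites that had no opened site that close, and there the median was 163 kb (75.6 and 323 kb). No opened site lay within 100 kb of 63.4% of clustered sites (57.8 to 68.8%) and of 66.5% of the others (65.1 to 67.9%). Within 500 kb there was none for 12.0% (8.57 to 16.1%) and 13.3% (12.3 to 14.3%). Both pairs of intervals overlap, and the difference was not tested. By chain, 80 of 129 had no opened site within 100 kb of any of their sites, 16 had none within 500 kb and 5 had none within 1000 kb.

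**Figure D3:**
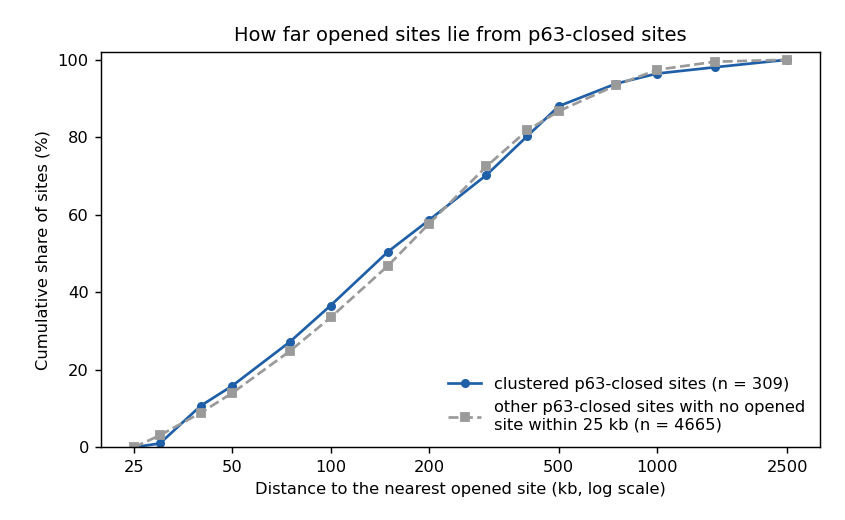
Cumulative share of sites (%) against the distance to the nearest opened site (kb, log scale), for the 309 clustered p63-closed sites (blue circles) and the 4665 other autosomal p63-closed sites with no opened site within 25 kb (grey squares). The curves run close together over the whole range, with 50.5% and 46.9% of sites reached at 150 kb.

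The chains most remote from opened sites were a neighbouring pair on chromosome 11. The one from 80323806 to 80345304 was 1515 kb from the nearest opened site and the one from 80409783 to 80434579 was 1601 kb from it. All 6 sites of the pair met the rule, and 64.5 kb with no listed site of either kind separated the chains. The chains on chromosome 10 from 107490945 to 107520812, on chromosome 7 from 37407684 to 37422969 and on chromosome 3 from 20580100 to 20618071 were 1196, 1158 and 1072 kb from an opened site.

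The exclusion by opened sites removed few candidates. Of 365 autosomal p63-closed sites with at least 2 others within 25 kb, 56 also had an opened site in reach, or 15.3% (11.8 to 19.5%). Among p63-closed sites with fewer neighbours the share with an opened site in reach was 17.3% (16.3 to 18.3%). The intervals overlap, and the difference was not tested. In 12 of the 129 chains a site that failed the rule had an opened site within 25 kb.

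Values at the edges of the rule were close to each other. The clustered site with the farthest second neighbour had it at 24.987 kb, on chromosome 3 from 189483264 to 189484915, and the first site left out had it at 25.008 kb, on chromosome 10 from 29390612 to 29391914. For opened sites, the closest that was still outside the radius lay 25.452 kb from a clustered site on chromosome 14 from 21212932 to 21215099. The farthest that removed a site lay 24.928 kb away, on chromosome 21 from 41134574 to 41136737.

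Clustered sites occurred on 20 of the 22 autosomes. They made up 5.15% of autosomal p63-closed sites (4.60 to 5.74%). Chromosome 2 had the most, 36 sites in 14 chains, and chromosome 3 had 34 sites in 16 chains, which were 5.92% and 6.73% of their p63-closed sites. The share was largest on chromosome 18, at 8.72% (4.73 to 14.5%, 13 of 149 sites), and chromosome 12, at 8.54% (5.55 to 12.4%, 24 of 281). It was lowest among chromosomes with any on chromosome 16, at 0.855% (0.0220 to 4.67%), where 1 of 117 sites was clustered. On chromosome 17 it was 2.03% (0.420 to 5.81%, 3 of 148). Chromosome 19 had 0 of 61, which by a limit of 3 counts allows a share of up to 4.92% (exact upper bound 5.87%). Chromosome 22 had 0 of 28, which allows up to 10.7% (exact upper bound 12.3%). Only the exact intervals of chromosomes 12 and 16 left out the value for all autosomes. Because sites come in chains of at least 3, these intervals are too narrow, and no difference between chromosomes was tested.

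**Figure D4:**
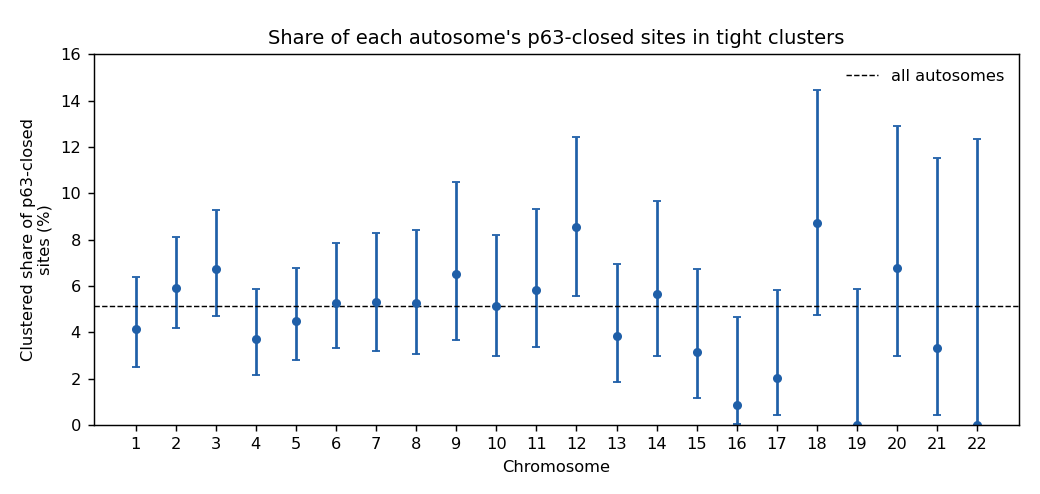
Share of each autosome's p63-closed sites that were clustered (%), with exact 95% binomial intervals; the dashed line is the share over all autosomes, 5.15%. Chromosomes 12 and 18 are the highest, chromosomes 16, 19 and 22 the lowest, and the intervals are wide.

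Few chains had another chain close by, and no expected distance between chains was worked out. The median distance from a chain to the next chain on the same chromosome was 6024 kb, and 19 of the 129 chains had another within 1 Mb. Other p63-closed sites, in a chain or not, were closer: 75 chains had one outside the chain within 100 kb and 123 had one within 500 kb. The median distance from a chain to such a site was 82.3 kb. For the other autosomal p63-closed sites the nearest p63-closed site lay at a median of 82.3 kb. By definition the distance from a chain is over 25 kb, so the 2 measures are not fully alike. At 7 places a pair of chains lay within 500 kb of each other. The closest pair was on chromosome 10 between 20535871 and 20653305, 52.8 kb apart, with 1 clustered site in each chain. On chromosome 8 between 107001262 and 107339254 all 6 sites of both chains met the rule, and 1 p63-closed site and 0 opened sites lay between them. On chromosome 12 the compact chain that starts at 90219394 and the longest chain of all were neighbours, 172 kb apart. On chromosome 4 between 148058157 and 148238494 the chains held 8 sites, of which 4 met the rule, and 1 opened site lay between. On chromosome 2 between 66481293 and 67034085 they held 6 sites, with 3 p63-closed and 2 opened sites between.

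The pair on chromosome 3 lies between 189003582 and 189511124. In the first chain all 3 sites met the rule, at 1645, 1062 and 1638 bp wide within 20.1 kb. In the second, from 189473574 to 189511124, only the middle site of 1652 bp did. Its outer sites were 1818 and 4096 bp wide. Between the chains lay 7 further p63-closed sites and 1 opened site, so p63-closed sites were also numerous outside the chains there.

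Genes were not assigned to chains, since no annotation of hg19 was used here. From general knowledge of the genome map, and not from a computed overlap, some chains fall in well-known loci. These were picked after the positions had been seen. The second chromosome 3 chain of that pair is in the locus of TP63, the gene of p63 itself, and the knockout cells are labelled p63-/-. The dense chain on chromosome 7 is in the GLI3 locus. GLI3 is a zinc-finger transcription factor of the Hedgehog pathway. A chain on chromosome 12 from 115140608 to 115150760, with 3 clustered sites of 1835, 822 and 1683 bp, is close to TBX3, a T-box transcription factor. A chain on chromosome 6 from 139707143 to 139729518, with sites of 1310, 848 and 2189 bp, is close to CITED2, a transcriptional co-regulator.

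Other chains fall in very long genes. On chromosome 11 from 113060235 to 113083966, in the locus of the neural cell adhesion molecule NCAM1, the sites were 1459, 1463 and 1752 bp wide. On chromosome 1 from 237917316 to 237943630, in the locus of the calcium release channel RYR2, they were 1007, 1364 and 1823 bp wide, and the nearest opened site was 532 kb away. The isolated chain on chromosome 13 is in the locus of GPC5, a cell surface glypican. On chromosome 2 from 142212039 to 142237631, in the locus of the lipoprotein receptor relative LRP1B, the middle site was 3669 bp wide and the nearest opened site 597 kb away. Both chromosome 20 chains from 14646738 to 14658900 and from 15541451 to 15600748 are in the locus of MACROD2, an ADP-ribose hydrolase. In the first all 3 sites met the rule, and in the second 2 of 4 did. A chain on chromosome 3 from 60019440 to 60048115, with 1 clustered site of 1224 bp, is in the locus of FHIT. No count of loci is drawn from these examples.

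The rule was also applied with the lists exchanged. It picked 404 of 7753 autosomal opened sites, or 5.21% (4.73 to 5.73%), beside 5.15% for p63-closed sites. These opened sites formed 165 chains with a median span of 26.2 kb. Their median width was 1504 bp, beside 1463 bp. The largest opened chain had 7 clustered sites, beside 5 for the p63-closed sites, and 18 opened chains had at least 4, beside 11. Before the exclusion by the other list, 511 opened sites (6.59%) and 365 p63-closed sites (6.08%) had at least 2 others within 25 kb, and the exclusion removed 107 and 56 of them. The lists differ in length, which bears on both steps, so these shares are given side by side and no difference between the lists was tested. The clustered opened sites had their nearest p63-closed site at a median of 226 kb, which the lengths of the lists also affect.

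Distance to the last listed site of the chromosome was also measured, which is not the distance to the chromosome's end. Within 5 Mb of it lay 4 of 309 clustered sites, 1.29% (0.354 to 3.28%). The share was 2.46% (2.07 to 2.89%) for the other autosomal p63-closed sites. The intervals overlap, sites of the same chain are not independent, and the difference was not tested.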

How the data were processed

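The data analysed were 2 lists of sites deposited by the authors, each with 4 columns: chromosome, start, end and a numbered name. Per the submitters' processing notes the tools included FastQC, Bowtie2, SAMtools, MACS2 and DESeq2, and the builds hg19 and GRCh37. The sources used here state neither their roles, versions and thresholds nor whether replicates were pooled. The deposited lists give no count, signal or p-value, so depth is unknown and no test between cultures was made. Each width is the end minus the start and each centre the midpoint. Members and chains were found with Python 3.11.15, pandas 2.3.3 and numpy 2.4.6, and the rule was tested on simulated sites against a direct count. Intervals are exact Clopper-Pearson intervals at 95% (scipy 1.17.1). The members, gene loci and measures were chosen with earlier results of these data known. The 15 chains with the most members, the 4 densest and the 2 widest sites were named by rule. Gene lists, gene distances, GC content, motifs and site sequences need an hg19 genome and annotation and were not used here. Gene symbols were checked by chromosome against a RefSeq table of GRCh38.p14, whose coordinates were not used.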

Additional observations from a re-analysis of the deposited data

How the results depend on the processing

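Of 11 alternatives, 8 stayed within 1.5 times the count, or within the exact 95% interval of the median width (1400 to 1583 bp). That interval takes sites as independent, which sites of 1 chain are not. The count of 309 clustered sites depends on the rule's own numbers: it was 121 with a radius of 15 kb for neighbours, 732 with 50 kb, and 44 when at least 3 other sites were required, as each of these widens or narrows the rule. It was 365 without the exclusion by opened sites, 260 when none could lie within 50 kb, 339 with gaps between edges, 224 with sites within 1000 bp joined, and 309 with chromosome X included. Links of up to 50 kb left 129 chains. Even the closest 2 chains lay 52.8 kb apart with no listed site between, so this length could not join them. It does add sites to chains, as on chromosome 8 from 122788226, where an outside p63-closed site lay 27.5 kb away. The unchanged count thus does not mean that the chains were unchanged. Links shortened to 0.5 of the main length gave 183 runs that held a clustered site, and some of these runs were that site alone. The median width was 1491 bp with joined sites, which come from the same list and so are no independent check. No paired analysis was possible because site positions carry no measurement from any 1 replicate, which also prevents leaving a replicate out. The settings for gene bodies, gene starts, GC content and motifs were not run. A site missing from a list is not shown to be unchanged, since depth is unknown.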

Other observations

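In the 99 chains of 3 sites the middle site was the narrowest in 48 and the widest in 20. No expected count was set beside these. The median width was 1330 bp for middle sites (quartiles 1040 and 1850 bp) and 1624 bp for outer ones (1244 and 2134 bp). It was 1535 bp for the 5696 autosomal p63-closed sites that were not clustered, which include some sites of these chains. The difference was not tested. The 65 clustered sites with another p63-closed site's edge within 1 kb had a median width of 1365 bp, and the 244 without one 1518 bp. How the authors' processing split or joined neighbouring stretches is not given in the sources used here, and its part in these widths was not tested.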
